A study of Homo sapiens with 28 samples.

Results

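The UGT2B genes encode UDP-glucuronosyltransferases, enzymes of the endoplasmic reticulum that transfer glucuronic acid from UDP-glucuronic acid to steroids and other fat-soluble molecules. The glucuronides are water-soluble, no longer act as androgens, and leave the cell through export pumps. In the prostate UGT2B15 and UGT2B17 are known as the main enzymes that remove dihydrotestosterone and its metabolites, and their repression by androgen is long known in LNCaP cells. UGT2B7 conjugates steroids, bile acids and morphine, and UGT2B28 has weak activity on steroids. UGT2B10 is known for N-glucuronidation of amines such as nicotine, and the substrates of UGT2B11 are poorly defined, so the name androgen-conjugating enzymes covers some of these genes only by family.

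The 6 members were the rows of the count table whose gene symbol is UGT2B7, UGT2B10, UGT2B11, UGT2B15, UGT2B17 or UGT2B28, out of 61815 human genes. The members were chosen by family, with earlier results of these libraries known, among them the low level of UGT2B10 with the kinase inhibitors. The effects of R1881 and of the inhibitors on the members are therefore given below as a description, with no p-value printed. Where a member is called, the call rests on a false discovery rate from these same libraries and is no independent support. RNA-Seq was done on LNCaP cells, an androgen-responsive line from a lymph node metastasis of prostate cancer, here with wild-type genotype. All groups, controls included, were androgen deprived for 72 h in charcoal-stripped serum before treatment. In the 24 h experiment (3 libraries per group) the cells received 0.1% DMSO (vehicle), 1 µM Senexin B, 0.1 nM R1881, or both agents. The Senexin B dose is that of the labels, and the text of the study gives a higher one for this experiment. In the 72 h experiment (4 libraries per group) they received 0.1% DMSO, 500 nM SNX631, 1 nM R1881, or both. R1881 acts as an androgen and is made by synthesis. Both inhibitors, Senexin B and SNX631, act on CDK8 and CDK19, the kinases of the Mediator complex, and are described as chemically unrelated compounds. The time, the R1881 dose and the inhibitor all differ between the experiments, so they cannot be told apart in any difference between them. The methods of the study call the RNA-Seq replicates biological, but whether they were separate cultures or days is not given in the sources used here. The errors below measure the spread between these libraries, and SEs of fold changes pool it over the groups fitted together. Beyond counting error, the coefficient of variation common to the genes tested was 2.72% at 24 h and 2.38% at 72 h. The spread between repeats of the experiments was not tested.

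The 28 libraries held 9846595 to 33809419 counts, and the third vehicle library at 24 h was the deepest. All 10 prostate luminal markers reached a CPM (count scaled to a library total of 1000000) of 1 in at least 1 group, and KLK3, which encodes PSA, went from 1.45 ± 0.295 CPM (SD, n = 3) in vehicle to 112 ± 4.35 CPM (SD, n = 3) with R1881 at 24 h. Of 12 markers of other cell types, 9 stayed under 1 CPM in every group mean, among them KRT5, TP63, PTPRC, PECAM1, COL1A2 and DCN. COL1A1 was the most abundant of the rest, at 8.22 to 29.5 CPM, and made up most of the summed level of the 12. That sum was 24.8 to 26.5 CPM in vehicle and 8.32 to 10.6 CPM with R1881 and Senexin B at 24 h. COL1A1 alone averaged 23.6 and 8.22 CPM in these groups. The same sum was 31.9 to 35.2 CPM in vehicle and 12.7 to 14.7 CPM with R1881 and SNX631 at 72 h. The hepatocyte marker ALB reached 3.61 CPM and APOA1 0.287 CPM. The part of these transcripts in the results below was not tested. Fewer cells that express a gene and less RNA per cell cannot be told apart in bulk libraries.

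The 6 genes lie together on the long arm of chromosome 4, within 757.9 kb (GRCh38, chr4:68537184-69295050), in the order UGT2B17, UGT2B15, UGT2B10, UGT2B7, UGT2B11 and UGT2B28. UGT2B17 (ENSG00000197888.3, chr4:68537184-68568527), UGT2B15 (ENSG00000196620.10, chr4:68646630-68670628) and UGT2B11 (ENSG00000213759.10, chr4:69199951-69214731) are on the minus strand. UGT2B10 (ENSG00000109181.12, chr4:68815993-68831196), UGT2B7 (ENSG00000171234.14, chr4:69051363-69112987) and UGT2B28 (ENSG00000135226.18, chr4:69280499-69295050) are on the plus strand. Each has a main protein-coding transcript of 6 exons with 1584 to 1590 coding bases. UGT2B7 overlaps a pseudogene on its own strand in the annotation. UGT2B11 overlaps an antisense RNA gene (ENSG00000250696.5), which had 0 to 3 counts per library at 24 h and 1 to 44 at 72 h. The library kit marks strand, but whether strand was used in counting is not given in the sources used here.

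These genes are near-copies, and this limits how far their counts can be separated. UGT2B11 and UGT2B28 share 97.0% of their aligned coding bases and UGT2B15 and UGT2B17 share 96.5%, while the least alike pair, UGT2B15 and UGT2B28, shares 83.9%. The stretch shown here is the 90-base window of the coding sequence, read 5′ to 3′ on the coding strand, with the most positions that differ among the 6 genes in the part that aligns without gaps. It lies in the first coding exon of each gene, in the part of the enzyme that binds the molecule to be conjugated. Capitals mark the 35 positions at which at least 1 gene differs.
UGT2B7 (chr4:69096851-69096940): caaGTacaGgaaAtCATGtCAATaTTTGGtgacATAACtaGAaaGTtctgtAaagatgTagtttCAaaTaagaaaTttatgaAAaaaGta
UGT2B10 (chr4:68816347-68816436): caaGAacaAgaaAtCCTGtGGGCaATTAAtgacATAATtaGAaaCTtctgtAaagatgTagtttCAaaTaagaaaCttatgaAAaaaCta
UGT2B11 (chr4:69214303-69214392): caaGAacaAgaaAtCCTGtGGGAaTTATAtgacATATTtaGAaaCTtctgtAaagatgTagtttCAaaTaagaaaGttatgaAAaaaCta
UGT2B28 (chr4:69280831-69280920): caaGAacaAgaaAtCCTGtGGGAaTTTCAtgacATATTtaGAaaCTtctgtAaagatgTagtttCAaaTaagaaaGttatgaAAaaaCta
UGT2B15 (chr4:68670196-68670285): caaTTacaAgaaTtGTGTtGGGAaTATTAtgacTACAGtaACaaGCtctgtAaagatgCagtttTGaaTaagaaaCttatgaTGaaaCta
UGT2B17 (chr4:68568062-68568151): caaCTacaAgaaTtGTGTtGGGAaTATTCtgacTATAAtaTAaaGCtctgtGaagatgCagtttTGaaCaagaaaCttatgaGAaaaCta
Even in this most variable window UGT2B11 and UGT2B28 differ at 2 of 90 bases, whereas UGT2B15 and UGT2B17 differ at 10. UGT2B7 and UGT2B15 differ at 28.

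Over the whole main transcript, the share of 75-base windows that also occur, letter for letter, in a transcript of another gene was 2.26% for UGT2B7, 15.2% for UGT2B28, 17.2% for UGT2B10, 18.4% for UGT2B15, 18.4% for UGT2B17 and 18.5% for UGT2B11. For UGT2B15 and UGT2B17 the shared windows were those that each has in common with the other. For UGT2B11 the gene with most shared windows was the pseudogene UGT2B25P (12.3%), for UGT2B28 it was UGT2B24P (10.1%) and for UGT2B10 it was UGT2B27P (6.89%). Read length is not given in the sources used here. With windows of 100 bases UGT2B7 shared none and UGT2B15 and UGT2B17 each shared 12.7%. The counts held fractions in 11 of 28 libraries for UGT2B11 and in up to 20 of 28 for UGT2B17, which shows that some reads were divided between features.

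**Figure D1:**
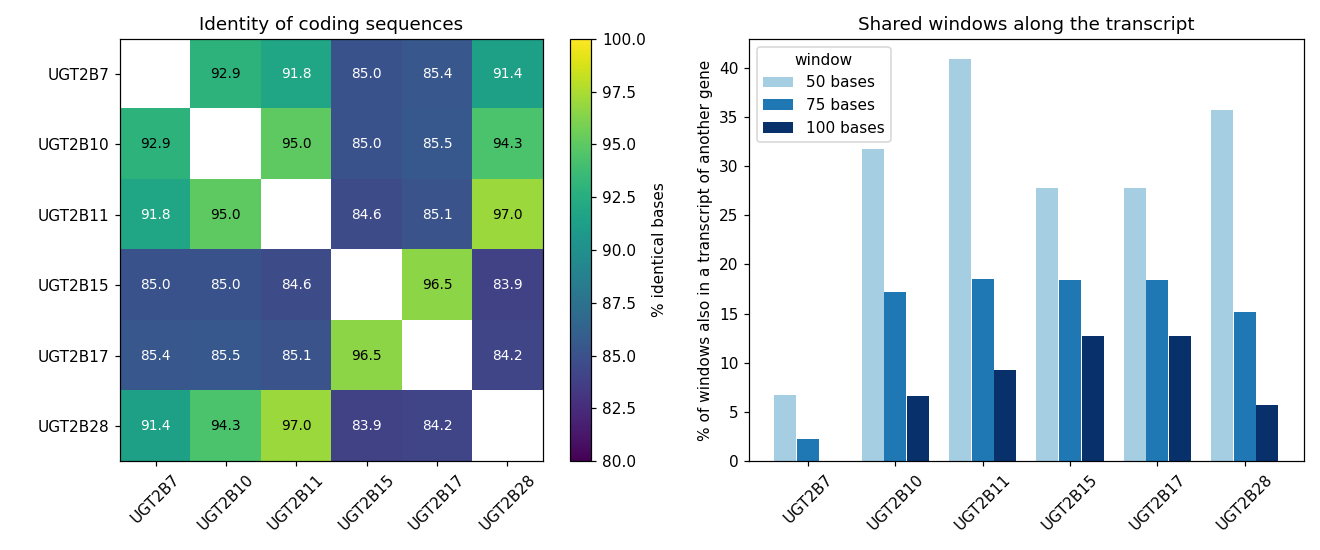
Left, percentage of identical bases between the aligned coding sequences of each pair of UGT2B genes. Right, percentage of windows of 50, 75 and 100 bases along the main transcript that also occur in a transcript of another gene; UGT2B7 has the lowest bars and the pairs UGT2B11 with UGT2B28 (97.0%) and UGT2B15 with UGT2B17 (96.5%) are the most alike.

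Levels between genes were compared per kilobase of the main transcript. In vehicle cells at 24 h, UGT2B15 was highest at 237 ± 1.84 CPM per kb (SD, n = 3), followed by UGT2B17 at 150 ± 7.08, UGT2B11 at 36.7 ± 0.978, UGT2B10 at 20.1 ± 0.882, UGT2B28 at 2.77 ± 0.0683 and UGT2B7 at 0.503 ± 0.133. In vehicle cells at 72 h UGT2B15 was again highest, at 506 ± 5.19 CPM per kb (SD, n = 4), but UGT2B11 at 289 ± 2.61 stood above UGT2B17 at 201 ± 1.69. With SNX631 alone UGT2B11 and UGT2B15 could not be separated, at 163 ± 5.51 and 162 ± 7.59 CPM per kb (SD, n = 4). With R1881 at 72 h UGT2B11 was the highest of the 6 at 153 ± 3.03 CPM per kb (SD, n = 4), above UGT2B15 at 112 ± 5.53.

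UGT2B15, which conjugates dihydrotestosterone and androstanediol, was the most abundant member in vehicle cells. The 3 vehicle libraries at 24 h held 490, 497 and 492 CPM, against 74.5, 75.2 and 78.7 CPM with R1881. The Senexin B libraries held 151, 153 and 156 CPM, and those with both agents 29.9, 43.8 and 33.8 CPM. No library of any of these groups overlapped the next. At 72 h the 4 vehicle libraries held 1044, 1059, 1041 and 1063 CPM, and those with R1881 237, 224, 248 and 225 CPM. The SNX631 libraries held 357, 339, 335 and 319 CPM, and those with R1881 and SNX631 108, 113, 105 and 110 CPM. Ordered by mean CPM over all 8 groups, vehicle at 72 h was highest and R1881 with Senexin B at 24 h lowest. The libraries of no pair of neighbouring groups overlapped. How many of all genes have neighbouring groups apart in this way was not counted, here or for the members below. The vehicle mean was 13.8 times the mean with both agents at 24 h and 9.66 times at 72 h.

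UGT2B17, the other main dihydrotestosterone enzyme of the prostate, had the same order of groups within each experiment with smaller steps. At 24 h vehicle libraries held 296, 326 and 312 CPM, Senexin B libraries 172, 171 and 176 CPM, R1881 libraries 78.2, 74.8 and 75.05 CPM, and libraries with both 54.3, 62.0 and 61.3 CPM. At 72 h the vehicle libraries held 416, 414, 421 and 421 CPM and the SNX631 libraries 252, 253, 252 and 235 CPM. R1881 alone gave 166, 151, 154 and 158 CPM, and R1881 with SNX631 gave 118, 111, 117 and 115 CPM. Again no neighbouring groups overlapped. Vehicle over both agents was 5.25 at 24 h and 3.64 at 72 h.

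UGT2B10, the amine-conjugating member, was low compared with UGT2B15 but had the largest ratio of vehicle to both agents in each experiment. Vehicle libraries at 24 h held 38.5, 37.2 and 40.6 CPM, Senexin B libraries 5.88, 5.13 and 5.63 CPM, R1881 libraries 6.40, 5.09 and 5.69 CPM, and libraries with both 1.03, 1.26 and 1.58 CPM. The libraries with Senexin B alone and with R1881 alone overlapped. At 72 h the vehicle libraries held 116, 113, 109 and 112 CPM and the SNX631 libraries 21.1, 21.6, 20.7 and 20.1 CPM. R1881 alone gave 25.3, 24.7, 27.4 and 28.4 CPM, and R1881 with SNX631 gave 6.67, 7.41, 7.01 and 6.27 CPM. The vehicle mean was 30.1 times the mean with both agents at 24 h and 16.4 times at 72 h.

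UGT2B11 differed most between the experiments among the abundant members. Vehicle libraries held 75.8, 74.98 and 78.9 CPM at 24 h and 600, 610, 599 and 606 CPM at 72 h. At 24 h Senexin B gave 33.1, 37.7 and 35.9 CPM, R1881 20.4, 23.8 and 21.8 CPM, and both 12.4, 13.9 and 12.5 CPM. At 72 h SNX631 gave 341, 355, 340 and 326 CPM, R1881 321, 322, 323 and 310 CPM, and both 134, 133, 136 and 141 CPM. All 4 groups at 72 h stood above all 4 at 24 h, and no neighbouring groups overlapped.

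UGT2B28 stood highest with R1881 at 72 h, where the other 5 members stood lower with R1881 than with vehicle. At 24 h vehicle libraries held 5.21, 5.06 and 4.96 CPM and R1881 libraries 5.10, 3.93 and 4.99 CPM, which overlapped. Senexin B libraries held 2.09, 2.27 and 3.01 CPM and those with both agents 1.55, 2.51 and 1.11 CPM, which also overlapped. At 72 h R1881 libraries were the highest of all, at 74.5, 72.3, 72.7 and 68.9 CPM, above the vehicle libraries at 48.9, 48.6, 47.1 and 43.9 CPM. SNX631 alone gave 24.8, 22.9, 23.3 and 20.1 CPM, and R1881 with SNX631 gave 17.1, 19.6, 18.8 and 18.1 CPM. Of the 6 genes, UGT2B28 alone had a higher mean with R1881 than with vehicle, and at 72 h only.

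UGT2B7, the broad-substrate steroid and morphine enzyme, was the scarcest member and the only one whose mean was higher with the inhibitor in all 4 comparisons. At 24 h vehicle libraries held 0.758, 0.855 and 1.23 CPM and Senexin B libraries 1.56, 0.841 and 1.85 CPM, which overlapped. R1881 libraries held 0.371, 0.0893 and 0.0875 CPM, that is 4, 1 and 1 counts, and libraries with both agents 0.429, 1.16 and 0.948 CPM. On summed counts vehicle was 5.997 times R1881 (exact 95% interval 2.61 to 16.9), and R1881 with Senexin B was 4.66 times R1881 (1.90 to 13.7); these intervals cover counting error only. At 72 h vehicle libraries held 3.34, 3.23, 2.95 and 2.92 CPM and SNX631 libraries 6.99, 7.07, 6.24 and 6.03 CPM. R1881 gave 1.35, 1.47, 0.707 and 1.82 CPM, and R1881 with SNX631 gave 3.65, 3.28, 2.61 and 3.79 CPM, a range that holds the vehicle libraries. The vehicle mean was 1.12 times the mean with both agents at 24 h and 0.933 times at 72 h.

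**Figure D2:**
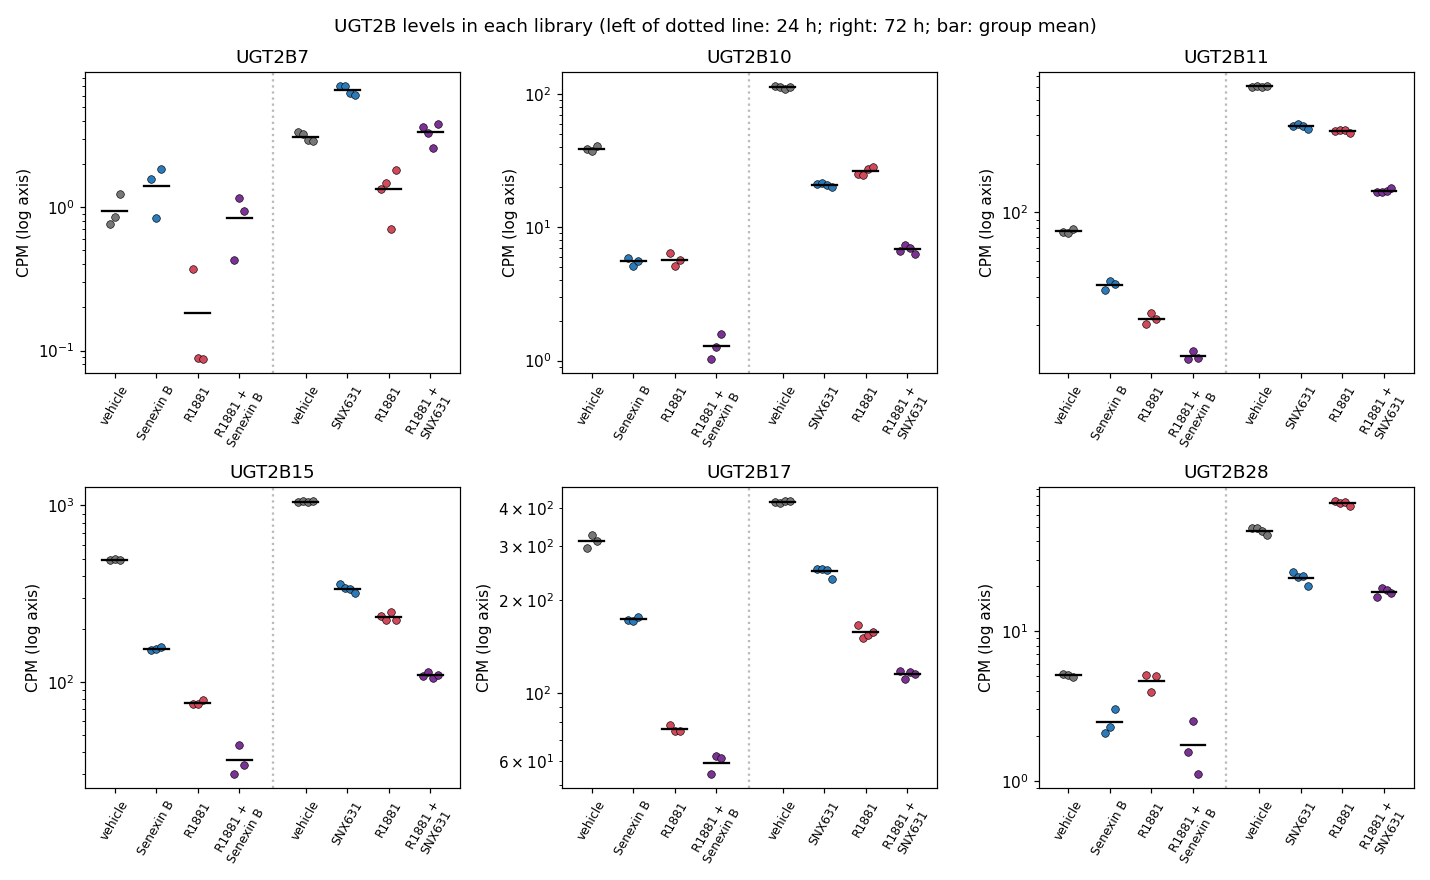
CPM of each UGT2B gene (log axis) in every library, by group, with the 24 h experiment to the left of the dotted line and the 72 h experiment to the right; points are libraries and bars are group means. UGT2B10, UGT2B11, UGT2B15 and UGT2B17 step down from vehicle to the combined treatment in both experiments, UGT2B28 peaks with R1881 at 72 h (72.1 CPM) and UGT2B7 peaks with SNX631 (6.58 CPM).

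The first question of the design was what androgen does in deprived cells. A gene was called where the false discovery rate (FDR, edgeR quasi-likelihood test over all genes) was under 0.01 and the fold over 1.5, the limits used for this study. At 24 h, R1881 against vehicle, 5 of 6 members were called lower and none higher, where 9.19% of the 15948 genes tested were called lower and 9.81% higher. The log2 fold changes were −2.77 ± 0.11 (SE) for UGT2B10, −2.70 ± 0.05 for UGT2B15, −2.49 ± 0.68 for UGT2B7, −2.04 ± 0.04 for UGT2B17 and −1.81 ± 0.06 for UGT2B11. UGT2B28 was not called, at −0.11 ± 0.16. At 72 h 5 of 6 were called lower (10.1% of 16074 genes) and UGT2B28 was called higher (9.7% of genes). The largest drops were −2.18 ± 0.03 for UGT2B15 and −2.09 ± 0.05 for UGT2B10, followed by UGT2B17 at −1.42 ± 0.03, UGT2B7 at −1.21 ± 0.22 and UGT2B11 at −0.93 ± 0.02. UGT2B28 was at 0.61 ± 0.05, a fold of 1.52, close to the limit. Its value was 0.50 with scaling by library totals and 0.57 without the fourth vehicle library, both under the limit.

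In cells that also received the inhibitor, R1881 with inhibitor against inhibitor alone, 4 of 6 members were called lower at 24 h (8.9% of genes) and 5 of 6 at 72 h (12% of genes). None was called higher, where 9.97% and 10.1% of genes were. UGT2B15 was at −2.11 ± 0.07 and −1.64 ± 0.03 at the respective times, and UGT2B10 at −2.09 ± 0.22 and −1.62 ± 0.08. UGT2B17 was at −1.55 ± 0.05 and −1.12 ± 0.03, and UGT2B11 at −1.47 ± 0.08 and −1.34 ± 0.03. UGT2B7 was not called at 24 h (−0.77 ± 0.38) and was called lower at 72 h (−1.001 ± 0.14). UGT2B28 was not called at either time, at −0.55 ± 0.26 and −0.32 ± 0.07.

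The second question was what inhibition of the Mediator kinases does with and without androgen. Senexin B alone at 24 h gave 5 of 6 members called lower (1.77% of genes) and none higher (2.02% of genes), with UGT2B7 not called (0.45 ± 0.31). UGT2B10 was lowest at −2.81 ± 0.10, a 7.03-fold drop, followed by UGT2B15 at −1.69 ± 0.05, UGT2B11 at −1.12 ± 0.05, UGT2B28 at −1.04 ± 0.19 and UGT2B17 at −0.85 ± 0.04. SNX631 alone at 72 h gave 5 of 6 called lower (1.94% of genes) and UGT2B7 called higher at 1.08 ± 0.14 (2.82% of genes). UGT2B10 was at −2.43 ± 0.05, UGT2B15 at −1.64 ± 0.03, UGT2B28 at −1.05 ± 0.06, UGT2B11 at −0.83 ± 0.02 and UGT2B17 at −0.76 ± 0.03. As dose and time differ between Senexin B and SNX631, the values stand side by side and the inhibitors were not compared.

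In the presence of R1881, Senexin B gave 4 members called lower (1.5% of genes) and UGT2B7 called higher (1.61% of genes). UGT2B10 was at −2.13 ± 0.23, UGT2B28 at −1.47 ± 0.24, UGT2B15 at −1.10 ± 0.07 and UGT2B11 at −0.77 ± 0.09. UGT2B7 was at 2.16 ± 0.71, a call that rests on 6 counts in the R1881 group and was lost when any of 4 single libraries was left out (1.83 to 2.05). SNX631 with R1881 likewise gave 4 called lower (2.24% of genes) and UGT2B7 called higher at 1.29 ± 0.21 (1.89% of genes). UGT2B28 was at −1.98 ± 0.06, UGT2B10 at −1.96 ± 0.08, UGT2B11 at −1.24 ± 0.03 and UGT2B15 at −1.11 ± 0.03. UGT2B17 was under the fold limit in both, at −0.36 ± 0.05 with Senexin B and −0.46 ± 0.03 with SNX631, although the libraries of the compared groups did not overlap, as was so in that direction for 19.2% and 16.7% of genes.

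**Figure D3:**
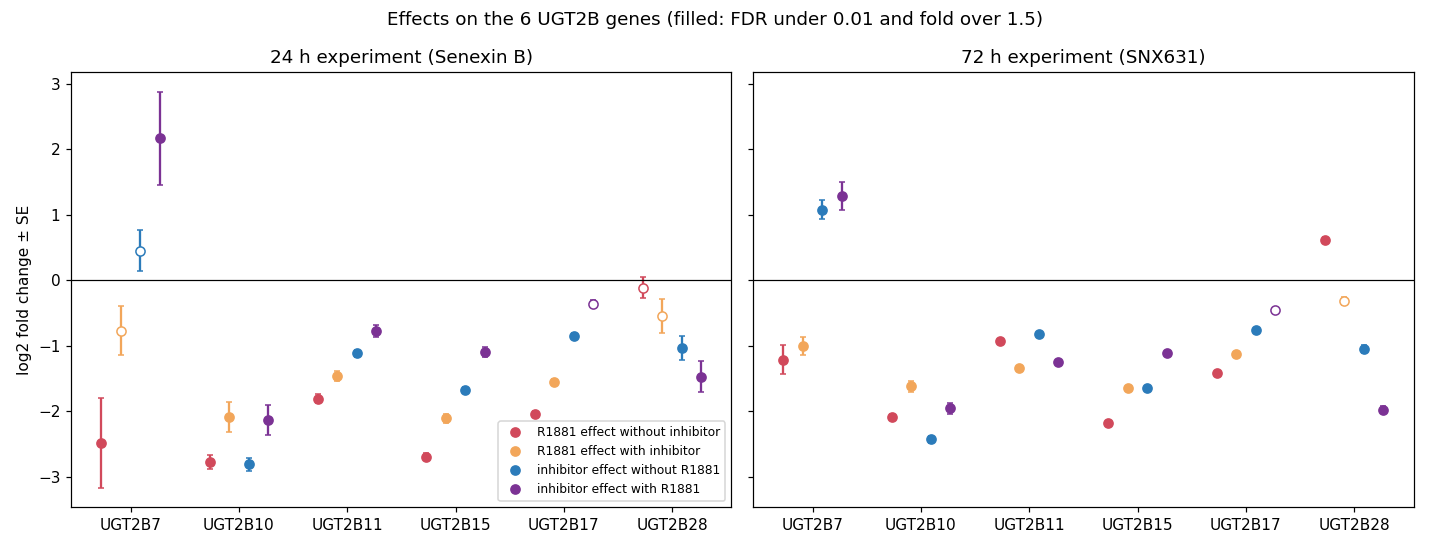
Log2 fold change (± SE) of each UGT2B gene for R1881 without and with inhibitor and for the inhibitor without and with R1881, in the 24 h (left) and 72 h (right) experiments; filled points met the limits of FDR under 0.01 and fold over 1.5. Points lie below 0 except for UGT2B7 with inhibitor (up to 2.16) and UGT2B28 with R1881 alone at 72 h (0.61).

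Whether the R1881 effect differed with the inhibitor present was tested as an interaction, the R1881 effect with inhibitor minus that without. FDR values are printed here, for the differences between experiments and for genes other than the members. They come from libraries whose earlier results were known when the genes were chosen, so they are no independent support. At 24 h no member met both limits (0.577% of genes did), while UGT2B15 and UGT2B17 differed with folds under 1.5. For UGT2B15 the difference was 0.58 ± 0.09 on the log2 scale (edgeR FDR = 2.78e-05), a fold of 1.4997, just under the limit. For UGT2B17 it was 0.49 ± 0.07 (edgeR FDR = 5.97e-06). UGT2B11 was at 0.34 ± 0.10 (edgeR FDR = 0.0531), UGT2B10 at 0.68 ± 0.25 (edgeR FDR = 0.144), UGT2B7 at 1.72 ± 0.78 (edgeR FDR = 0.182) and UGT2B28 at −0.44 ± 0.30 (edgeR FDR = 0.512). The same 4 groups carry both effects, so the same value is also the inhibitor effect with R1881 minus that without. For UGT2B15, UGT2B17, UGT2B11 and UGT2B10 a positive value is a smaller drop with the inhibitor in the presence of R1881, whereas for UGT2B7 it is a larger value above 0.

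At 72 h UGT2B28 met both limits (1.19% of genes did in either direction). Its interaction was −0.93 ± 0.08 (edgeR FDR = 3.61e-11). UGT2B28 was called higher with R1881 in the absence of SNX631. In the presence of SNX631 UGT2B28 was lower with R1881, at −0.32 ± 0.07, under the fold limit and so not called. UGT2B11, its closest copy in sequence, was also negative at −0.41 ± 0.04 (edgeR FDR = 4.78e-11). UGT2B15 at 0.53 ± 0.04 (edgeR FDR = 6.89e-12), UGT2B17 at 0.30 ± 0.04 (edgeR FDR = 1.95e-06) and UGT2B10 at 0.47 ± 0.09 (edgeR FDR = 0.000547) were positive, all with folds under 1.5. UGT2B7 was at 0.21 ± 0.26 (edgeR FDR = 0.672).

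Between the experiments, vehicle cells at 72 h held more of each member than vehicle cells at 24 h. In a fit over all 28 libraries 5 of 6 members were called higher, where 3.95% of 16672 genes were. UGT2B28 was higher by 3.22 ± 0.10 (edgeR FDR = 9.65e-33) and UGT2B11 by 2.97 ± 0.03 (edgeR FDR = 1.09e-47), folds of 9.34 and 7.85. UGT2B7 was higher by 1.56 ± 0.24 (edgeR FDR = 1.63e-07), UGT2B10 by 1.52 ± 0.04 (edgeR FDR = 3.3e-31) and UGT2B15 by 1.09 ± 0.04 (edgeR FDR = 7.48e-28). UGT2B17 was at 0.43 ± 0.03 (edgeR FDR = 8.43e-16), a fold of 1.34, under the limit. The libraries of the vehicle groups did not overlap for any member, as was so for 22.1% of genes in the upward direction. Time in androgen-deprived medium, day of work and library batch cannot be told apart here.

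The R1881 effect was also compared between the experiments, as 72 h minus 24 h. The difference was positive for the 6 members and was called for 4 of them, where 0.57% of genes were called in that direction. It was 0.89 ± 0.06 for UGT2B11 (edgeR FDR = 8.35e-15), 0.72 ± 0.16 for UGT2B28 (edgeR FDR = 0.000677), 0.69 ± 0.11 for UGT2B10 (edgeR FDR = 4.74e-06) and 0.62 ± 0.05 for UGT2B17 (edgeR FDR = 9.58e-13). UGT2B15 was at 0.52 ± 0.06 (edgeR FDR = 1.05e-08), under the fold limit, and UGT2B7 at 1.28 ± 0.69 (edgeR FDR = 0.166). For UGT2B11, UGT2B10 and UGT2B17 a positive value means a smaller drop at 72 h, where the R1881 dose was 1 nM against 0.1 nM.

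A sum over the 6 genes does not depend on how reads were divided among them. The summed level was 925 ± 17.8 CPM (SD, n = 3) in vehicle at 24 h, 372 ± 6.50 with Senexin B, 185 ± 1.70 with R1881 and 112 ± 12.5 with both. At 72 h it was 2237 ± 14.7 CPM (SD, n = 4) in vehicle, 976 ± 35.2 with SNX631, 810 ± 18.8 with R1881 and 388 ± 3.69 with both. The sum was 5.01-fold lower with R1881 than with vehicle at 24 h and 2.76-fold lower at 72 h, and with both agents 8.28-fold and 5.76-fold lower. With the inhibitor alone it was 2.49-fold and 2.29-fold lower at the respective times. The 5 pseudogenes of the family made up 0.303% to 1.78% of a sum that includes them.

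The makeup of the sum moved with treatment. UGT2B15 made up 53.3 ± 0.659% of it (SD, n = 3) in vehicle at 24 h and 31.9 ± 2.85% with both agents, while UGT2B17 went from 33.6 ± 0.961% to 53.1 ± 2.96%. At 72 h UGT2B15 went from 47.0 ± 0.185% (SD, n = 4) to 28.1 ± 0.785% and UGT2B17 from 18.7 ± 0.226% to 29.6 ± 0.883%. UGT2B11 made up 27.0 ± 0.103% in vehicle at 72 h and 39.4 ± 0.719% with R1881, and UGT2B28 went from 2.11 ± 0.108% to 8.90 ± 0.186%. UGT2B10 made up 5.02 ± 0.124% in vehicle at 72 h and 2.14 ± 0.0334% with SNX631. These shares are of CPM and are not per kilobase.

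**Figure D4:**
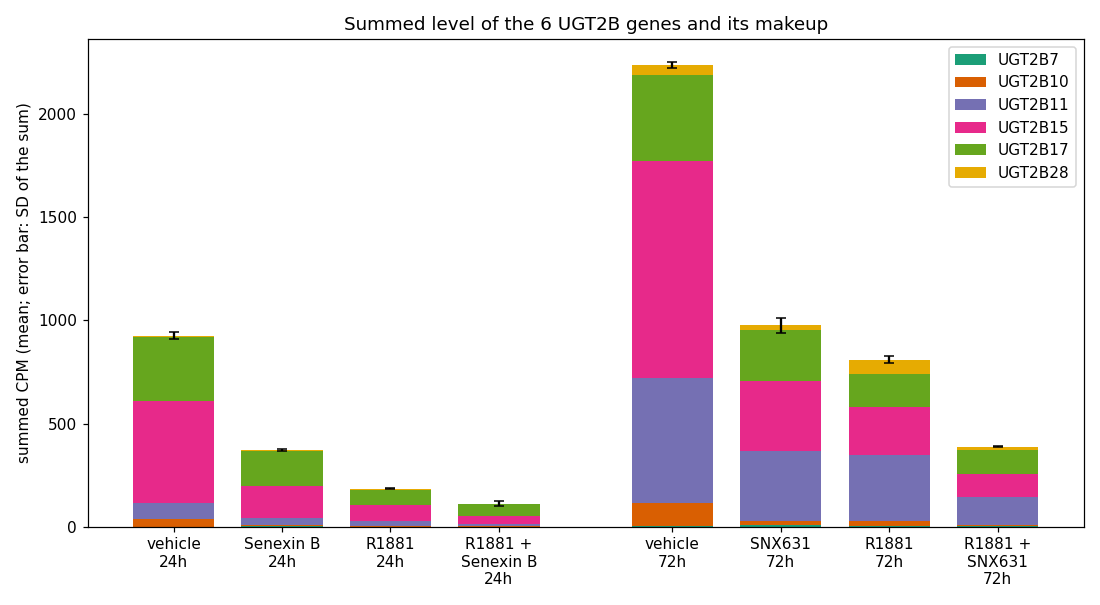
Mean CPM of the 6 UGT2B genes stacked to their sum in each group, with error bars for the SD of the sum over 3 libraries (24 h) or 4 libraries (72 h). The sum is 925 CPM in vehicle and 112 CPM with both agents at 24 h, and 2237 and 388 CPM at 72 h, and UGT2B11 takes a larger part at 72 h.

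Ratios between close copies, taken within each library, do not depend on scaling between libraries. UGT2B15 over UGT2B17 was 1.59 ± 0.0632 (SD, n = 3) in vehicle at 24 h, 0.887 ± 0.00942 with Senexin B, 1.00 ± 0.0489 with R1881 and 0.603 ± 0.0898 with both. At 72 h it was 2.51 ± 0.0353 (SD, n = 4) in vehicle, 1.36 ± 0.0379 with SNX631, 1.49 ± 0.0878 with R1881 and 0.948 ± 0.0520 with both. UGT2B15 thus stood lower relative to UGT2B17 with each agent than in vehicle, and lowest with both. UGT2B28 over UGT2B11 stood at 0.0663 ± 0.00312 in vehicle and 0.215 ± 0.0449 with R1881 at 24 h (SD, n = 3). At 72 h it stood at 0.0780 ± 0.00390 in vehicle, 0.226 ± 0.00416 with R1881, 0.0668 ± 0.00501 with SNX631 and 0.135 ± 0.00949 with both (SD, n = 4). UGT2B11 over UGT2B15 was 0.155 ± 0.00467 in vehicle at 24 h (SD, n = 3) and 0.574 ± 0.00271 at 72 h, where it reached 1.37 ± 0.0558 with R1881 (SD, n = 4).

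**Figure D5:**
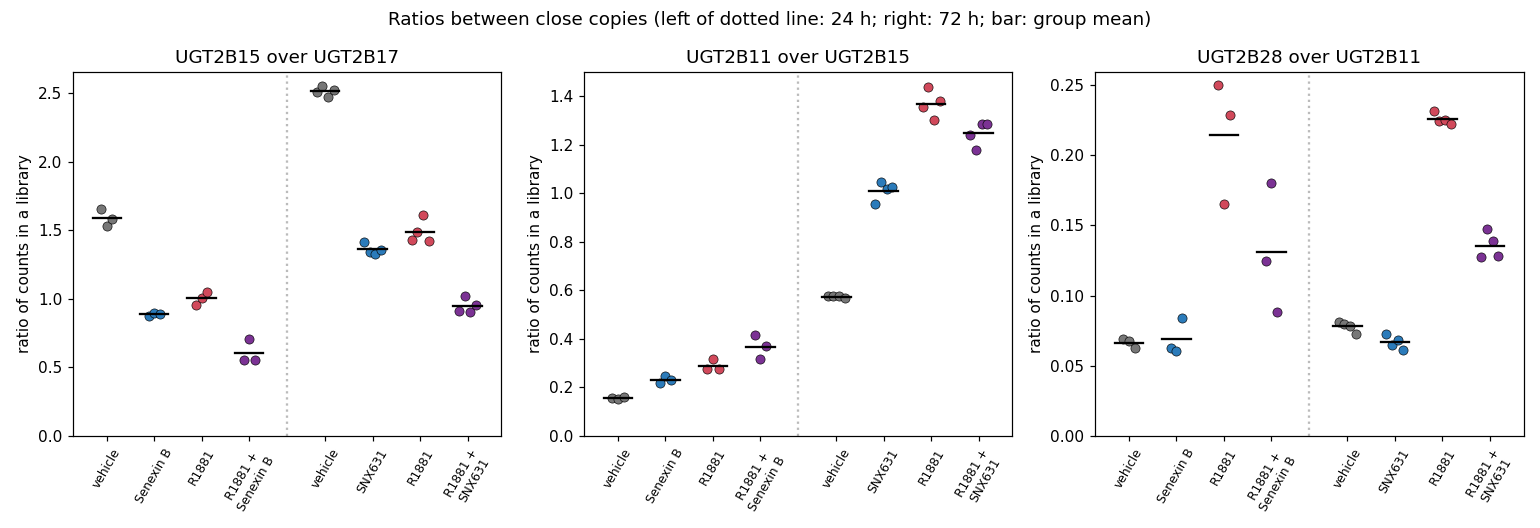
Ratio of counts of UGT2B15 to UGT2B17, UGT2B11 to UGT2B15 and UGT2B28 to UGT2B11 in each library, by group, with bars at the group mean and the 24 h experiment to the left of the dotted line. The first ratio is 1.59 in vehicle and 0.603 with both agents at 24 h, and 2.51 and 0.948 at 72 h; the others are higher with R1881 than with vehicle.

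Promoter sequence was at hand for 4 members (RefSeq, GRCh38.p14). The 250 bases before the start of each transcript are shown, written 5′ to 3′ on the gene's strand. Whether they have a part in the changes with R1881 or inhibitor was not tested. Capitals mark motifs searched on both strands: GTAAACA (forkhead factors such as FOXA1) and AGGTCA (a half-site of nuclear receptors). The motifs printed do not overlap each other.
UGT2B7 (chr4:69096224-69096473, plus strand): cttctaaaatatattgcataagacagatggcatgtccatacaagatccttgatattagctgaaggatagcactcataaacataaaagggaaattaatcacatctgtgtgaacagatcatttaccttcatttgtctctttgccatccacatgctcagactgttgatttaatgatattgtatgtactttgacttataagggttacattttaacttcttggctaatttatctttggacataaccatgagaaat
UGT2B10 (chr4:68815744-68815993, plus strand): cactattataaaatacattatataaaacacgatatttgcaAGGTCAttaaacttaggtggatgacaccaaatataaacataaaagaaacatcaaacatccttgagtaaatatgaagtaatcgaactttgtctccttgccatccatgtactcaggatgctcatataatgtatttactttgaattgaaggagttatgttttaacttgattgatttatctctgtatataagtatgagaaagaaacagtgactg
UGT2B11 (chr4:69214749-69214998, minus strand): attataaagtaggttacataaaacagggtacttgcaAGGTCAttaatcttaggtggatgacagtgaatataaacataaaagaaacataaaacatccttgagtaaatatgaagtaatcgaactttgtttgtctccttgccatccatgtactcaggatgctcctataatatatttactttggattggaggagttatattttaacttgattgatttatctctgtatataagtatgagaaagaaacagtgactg
UGT2B15 (chr4:68670653-68670902, minus strand): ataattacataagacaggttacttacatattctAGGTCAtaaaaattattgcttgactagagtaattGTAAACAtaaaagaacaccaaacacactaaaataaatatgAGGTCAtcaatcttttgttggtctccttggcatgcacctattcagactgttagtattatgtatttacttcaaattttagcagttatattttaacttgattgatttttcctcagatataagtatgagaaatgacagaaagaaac
UGT2B15 holds GTAAACA at 183 to 177 bases before the start, and AGGTCA at 217 to 212 and at 143 to 138. UGT2B10 holds AGGTCA at 210 to 205 bases and UGT2B11 at 214 to 209, within stretches that are 93.1% identical over the aligned bases. UGT2B7 holds neither motif, and its window is 67.1% to 70.4% identical to the others. Only these exact letters were searched, and no motif particular to the androgen receptor was among them. UGT2B7, UGT2B10 and UGT2B11 each hold ataaaca, which differs from GTAAACA only by an A in place of the G. Unmarked letters are therefore not a sign that a related site is absent. Among 35116 promoter windows of the same length, 2.98% hold GTAAACA and 12.1% AGGTCA. A match is a description of letters and not of binding.

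Other genes of glucuronidation were read from lists chosen with earlier results of these data known. Of 16 other UDP-glycosyltransferase genes, 13 stayed under 1 CPM in every group, among them the 9 genes of the UGT1A locus, whose shared exons make their counts uncertain. UGT2B4, a bile acid-conjugating relative in the same family, fell with R1881 at 24 h (−1.40 ± 0.35, edgeR FDR = 0.000402) and at 72 h (−0.86 ± 0.15, edgeR FDR = 3.79e-06), from 6.13 ± 0.909 to 3.38 ± 0.879 CPM (SD, n = 4) at 72 h. With SNX631 alone it was at 0.19 ± 0.12 (edgeR FDR = 0.24). UGT2A3 fell with R1881 at 72 h (−3.47 ± 0.83, edgeR FDR = 1.48e-06), from 0.837 ± 0.206 to 0.0691 ± 0.0847 CPM (SD, n = 4). UGT8, which makes galactosylceramide and does not glucuronidate, rose with R1881 at 24 h (0.75 ± 0.13, edgeR FDR = 1.3e-05).

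The 5 pseudogenes were scarce, and reads shared with the members make them uncertain. UGT2B27P, which shares most windows with UGT2B10, fell with Senexin B (−1.40 ± 0.38, edgeR FDR = 0.00196) and with SNX631 (−1.29 ± 0.18, edgeR FDR = 7.74e-08). With R1881 alone it was at 0.47 ± 0.27 at 24 h (edgeR FDR = 0.128) and −0.28 ± 0.15 at 72 h (edgeR FDR = 0.0918), where UGT2B10 was at −2.77 and −2.09. UGT2B24P rose with R1881 at 72 h, from 0.766 ± 0.249 to 2.29 ± 0.292 CPM (SD, n = 4; 1.56 ± 0.27, edgeR FDR = 1.38e-06), and had a negative interaction of −1.99 ± 0.44 (edgeR FDR = 0.00116), as UGT2B28 did.

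Of 7 genes for the supply of UDP-glucuronic acid, 6 were tested and none was called with an inhibitor, where 1.5% to 2.82% of all genes were called in each direction, so that 0 of 6 says nothing particular to this list. PGM2, a phosphoglucomutase-family enzyme, rose with R1881 by 0.90 ± 0.03 at 24 h (edgeR FDR = 8.96e-21), when its mean went to 219 ± 0.882 CPM from 117 ± 2.16 CPM (SD, n = 3), and by 1.21 ± 0.03 at 72 h (edgeR FDR = 3.32e-30). UGDH, which oxidises UDP-glucose to UDP-glucuronic acid, rose with R1881 at 72 h from 64.2 ± 1.44 to 106 ± 2.54 CPM (SD, n = 4; 0.72 ± 0.03, edgeR FDR = 1.1e-20) and was at 0.58 ± 0.05 at 24 h (edgeR FDR = 4.27e-12), just under the fold limit.

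Of 9 genes for export of conjugates, 6 were tested at 24 h, where R1881 raised 2 and lowered 1 (9.81% of all genes tested were called higher and 9.19% lower). At 72 h 7 were tested, and R1881 raised 2 and lowered 4 (9.7% and 10.1% of all genes). ABCC4, a pump for steroid conjugates, rose by 2.35 ± 0.03 at 24 h (edgeR FDR = 1.04e-32), to 726 ± 9.32 CPM (SD, n = 3) against 142 ± 2.33 CPM in vehicle, and was at 2.38 ± 0.03 at 72 h (edgeR FDR = 1.66e-40). ABCC1 rose by 0.91 ± 0.04 (edgeR FDR = 5.49e-20) and 1.05 ± 0.03 (edgeR FDR = 2.35e-27). ABCG2 fell from 2.87 ± 0.264 to 0.538 ± 0.404 CPM at 24 h (SD, n = 3; −2.41 ± 0.42, edgeR FDR = 3.24e-07). Of 11 genes for sulfation and its removal 7 were tested, and SULT2B1, a sterol sulfotransferase, was lower with both inhibitors: −0.87 ± 0.13 with Senexin B (edgeR FDR = 2.43e-06) and −0.85 ± 0.14 with SNX631 (edgeR FDR = 2.93e-06).

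Of 10 transcription factors known to act on UGT2B genes, 3 were tested and none was called with an inhibitor alone, where 1.77% to 2.82% of all genes were called in each direction, so that 0 of 3 says nothing particular to these factors. FOXA1 was at −0.17 ± 0.03 with Senexin B (edgeR FDR = 3.78e-05) and −0.24 ± 0.02 with SNX631 (edgeR FDR = 1.93e-11), under the fold limit. It was at −0.46 ± 0.03 (edgeR FDR = 1.3e-14) and −0.32 ± 0.02 (edgeR FDR = 1.16e-15) with R1881 at 24 h and 72 h. FOXA2 and HNF4A, liver regulators of the family, reached at most 0.0426 CPM in a group mean.

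Apart from the 6 members themselves, the genes with the most similar profiles over the 8 groups were sought among 14899 genes of at least 1 mean CPM, by the root mean square difference of log2 CPM centred within each experiment. For UGT2B15 they were LINC01411 (0.32), CNTN2 (0.34) and APOF (0.39), where the median gene differed by 1.30. For UGT2B10 they were LINC01411 (0.67), CNTN2 (0.73) and SLC30A10 (0.74), against a median of 1.58, while the member UGT2B15 was closer to UGT2B10 than these, at 0.46. For UGT2B28 they were TP53INP2 (0.20), ITGA1 (0.22) and H2BC4 (0.26), against 0.75. As the closest genes were picked, values under the median follow from the search itself. LINC01411, CNTN2 and APOF averaged only 2.10, 1.45 and 1.38 CPM.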

How the data were processed

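RNA was prepared from 28 LNCaP libraries in 8 groups. Per the submitters' processing notes, reads passed through FastQC, cutadapt 2.8, STAR 2.7.2b and featureCounts of Subread 2.0.3, with the builds GRCh38.p13 and GRCm39 named. The authors deposited 1 table of reads summed per gene in the form of expected counts (fractional, not normalized), in which 16.9% of the values above 0 are not whole; this limits the separation of near-identical UGT2B copies. Strand setting, read length and annotation release are not given in the sources used here. Counts were rounded to whole numbers and tested with edgeR 4.0.16 (R 4.3.3) by the quasi-likelihood test, with TMM scaling, filterByExpr (minimum count 10, minimum total 15) and Benjamini-Hochberg adjustment over all genes tested. The 24 h and 72 h experiments were fitted separately, and comparisons between them in a fit of all 28 libraries. All 6 members passed the filter in each fit. Calls needed FDR under 0.01 and a fold over 1.5. SEs are Wald errors from the same fits, with a spread per gene that is shared by all groups of a fit. CPM used TMM scaling over all libraries, and 2 added non-human entries were left out. Positions, transcripts and coding sequences came from GENCODE release 29 (GRCh38) by gene ID without version, and promoters from RefSeq (GRCh38.p14), which matched 4 of 6 members. Alignments used Biopython 1.88. The members and the gene lists were chosen with earlier results of these data known, and the genes with similar profiles by a rule on the size of the difference. List genes are named where called in at least 1 comparison within an experiment, and some regulators at or below the limits are named for their values. Some genes of these lists are not reported here. The procedure was tested on simulated data. Alternatives were other scalings, DESeq2 1.42.0, no filter, counts rounded down, other limits, a replicate block, a joint fit and leaving out each library.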

Additional observations from a re-analysis of the deposited data

Results flagged for a closer look

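Among 28 sets of 4 libraries (the 6 members and their sum in the 4 groups at 72 h), 3 had 1 library apart from the other three by more than Dixon's limit of 0.829 of the range. Chance flags about 1 in 20 sets. UGT2B11 with R1881 had 1 library at 310 CPM and the others at 321 to 323 CPM, a gap of 0.849 of the range. UGT2B17 with SNX631 had 1 library at 235 CPM and the others at 252 to 253 CPM, a gap of 0.905. The sum of the 6 genes with R1881 and SNX631 had a gap of 0.930, over a range of 386 to 394 CPM. The nearest group for UGT2B11 with R1881 was SNX631 alone at 72 h, at 326 to 355 CPM.

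The effect of R1881 on UGT2B28 differed with SNX631 present, by −0.93 on the log2 scale at 72 h. The effect of R1881 differed between the experiments by 0.69 for UGT2B10, 0.89 for UGT2B11, 0.62 for UGT2B17 and 0.72 for UGT2B28. Time, R1881 dose and batch cannot be told apart in these differences.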

How the results depend on the processing

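The 12 counts of called members stayed within 1.5 times their value with DESeq2 size factors, counts rounded down and the replicate block, and the 10 counts within an experiment with all 28 libraries fitted together. The interaction at 24 h, with 0 members called, had 1 (UGT2B15, whose fold lies at the limit) with library totals, the DESeq2 Wald test or no filter, and 2 with an FDR limit of 0.05 and no fold limit, under which the interaction at 72 h had 5. Leaving out 1 library gave 0 to 1 calls for the interaction at 24 h, the 1 being UGT2B15 without vehicle replicate 3 (0.59), R1881 replicate 3 (0.60) or replicate 1 (0.68) or 3 (0.62) of R1881 with Senexin B. With scaling by library totals the summed level was 952 CPM in vehicle, 180 CPM with R1881 at 24 h, 2375 CPM in vehicle at 72 h, 1015 CPM with SNX631 and 371 CPM with R1881 and SNX631; with the pseudogenes it was 188 CPM with R1881 at 24 h. UGT2B28 with R1881 alone at 24 h ran from −0.17 to 0.0081 over single left-out libraries, turning sign without R1881 replicate 2, and was not called in any of these fits. At 24 h UGT2B28 was called lower for R1881 in Senexin B treated cells (−0.89) without replicate 2 of the combined group. DESeq2 gave no adjusted p for UGT2B7 in 3 comparisons. Same-numbered libraries did not deviate together (r from −0.022 to 0.068 over 18 pairs at 24 h and −0.055 to 0.062 over 24 pairs at 72 h), and the replicate block moved no call: 5, 4, 5, 5 and 0 members at 24 h and 6, 5, 6, 5 and 1 at 72 h. UGT2B7 at 24 h rests on few counts.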

Other observations

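Variation between libraries of 1 group reached furthest in the scarce members UGT2B7 and UGT2B28. The coefficient of variation of CPM ran from 0.902% to 7.68% over the 8 groups for UGT2B11 and from 0.839% to 7.21% for UGT2B17. For UGT2B7 it ran from 6.72% to 89.4%, the highest value being in the R1881 group at 24 h with 1 to 4 counts per library. UGT2B28 ran from 2.46% to 41.8%.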
